A study of Mus musculus with 27 samples.

Results

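The data described here are the interaction of 4-methylumbelliferone (4MU) treatment with carbon tetrachloride (CCl4) liver injury, that is, for each gene, the 4MU response of injured livers minus the 4MU response of uninjured livers. The comparison used 13 of the 27 mice of the series, in 4 of its 8 groups, and 14114 of the 55414 genes in the count table, those averaging 10 or more counts over the 27 libraries. Female Balb/c mice, 8 weeks old per the study's methods, were the source of poly(A) RNA from whole liver homogenate, sequenced as read pairs and counted per gene. Control mice (n = 4) received olive oil intraperitoneally and, per the labels, PBS in the tail vein. 4MU mice (n = 3) received olive oil intraperitoneally and daily 4MU by gavage. CCl4 mice (n = 2) received CCl4 intraperitoneally for 2 weeks, with no second agent in the labels, and CCl4 + 4MU mice (n = 4) received CCl4 together with 4MU by gavage. The methods give a 4MU dose of 600 mg/kg, begun 2 days before the first CCl4 injection. The methods describe a vehicle gavage in control mice, whereas the labels list no gavage for control or CCl4 mice. By the labels, the gavage itself and 4MU cannot be told apart. Nor, in uninjured livers, can 4MU be told apart from the tail vein injection listed for control mice. The interaction carries this difference as well.

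CCl4 is converted to a toxic radical by cytochrome P450 enzymes of the hepatocytes around the central vein, and repeated dosing brings cell death, regenerative hepatocyte division, macrophage influx and collagen deposition by stellate cells. 4MU is a coumarin that takes up UDP-glucuronate and thereby lowers the supply of a building block of hyaluronan, a matrix glycosaminoglycan made by the synthases Has1, Has2 and Has3. An interaction asks whether the transcriptional response to 4MU was the same with and without injury, which a comparison of treated with untreated injured livers does not answer.

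Of the 14114 genes, 800 (5.67%) had an interaction past the threshold, an adjusted p under 0.05 in edgeR's quasi-likelihood test. The difference of responses was positive for 384 genes (2.72%) and negative for 416 (2.95%), and its absolute size was at least 1 on the log2 scale for 594 of the 800. Protein-coding genes made up 746 of them. The positive differences had a median of 1.31 and the negative ones a median of -1.15 (log2). The median over all genes tested was 0.05. The mean level of the affected genes, at a median of 19.6 CPM (counts relative to the scaled library total) for positive and 19.7 for negative differences, was somewhat above the median of 12.5 CPM of all genes tested. RNA was extracted from whole liver, so fewer cells of a type and less RNA per cell cannot be told apart in any of these values.

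In the fit against untreated mice, the 2 parts of the difference had unequal counts. In injured livers, 4MU treatment was associated with 2580 genes past the threshold (18.3%), and in uninjured livers with 1 (0.00709%). The first count was 177 without CCl4 mouse 2. The series also holds mice given lipid nanoparticles with a luciferase siRNA, a cargo with no mouse target, in olive oil (siLuc-LNP, n = 3) or with CCl4 (CCl4 + siLuc-LNP, n = 4). In CCl4 mice, the paper reports that siLuc-LNP itself lowered collagen deposition, serum AST and ALT and alpha-SMA mRNA. It reports no significant change of Col1a1 or Col3a1 mRNA. The nanoparticle groups are thus treated mice and not an inert reference. With these groups in place of the untreated ones, the order of the counts turned around, at 88 genes in injured and 176 in uninjured livers. The 1 gene past the threshold in uninjured livers against control mice was Ppp1r10, a regulatory subunit of protein phosphatase 1, named after its values were seen. Ppp1r10 stood at 12.7, 9.03, 11.8 and 26.5 CPM in control mice, 50.3, 54.6 and 39.96 in 4MU mice, 23.3 and 24.6 in CCl4 mice and 16.1, 21.2, 33.6 and 25.1 in CCl4 + 4MU mice. All 3 4MU mice were above all 4 control mice, whereas the CCl4 + 4MU mice spread around the CCl4 pair. Its interaction was -1.68 ± 0.41 (SE), adjusted p = 0.0283. In uninjured livers 966 of the 14114 genes had an unadjusted p under 0.05, a level that 5% of genes reach with no difference at all. DESeq2 placed 51 past the threshold there, voom 2 and the fit of the 13 mice alone none.

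**Figure D1:**
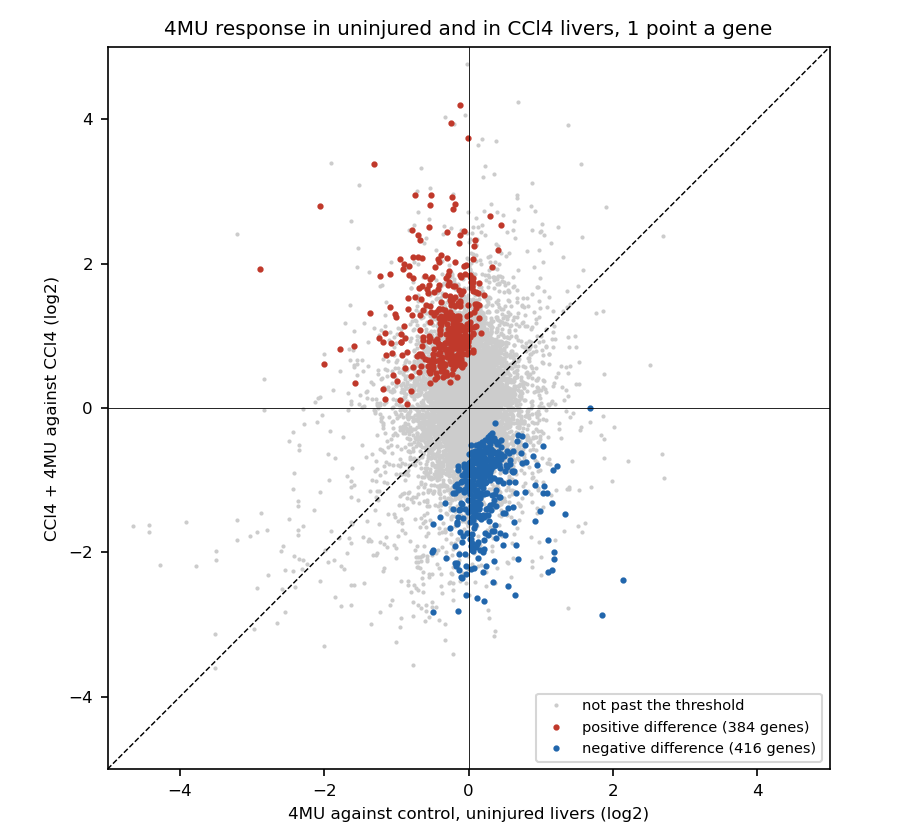
Each point is 1 of the 14114 genes tested, with the log2 difference between 4MU and control mice on the x axis and between CCl4 + 4MU and CCl4 mice on the y axis. Red (384 genes) and blue (416 genes) mark positive and negative interactions past the threshold, the dashed line marks equal responses, and 7 genes lie outside the axes at 5 log2 units. The coloured genes spread far more along the y axis than along the x axis.

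Side by side, the genes with a positive interaction had a median 4MU difference of 1.02 in injured and -0.26 in uninjured livers, and those with a negative interaction had -0.94 and 0.16 (log2). Read the other way, the same positive genes had a median CCl4 difference of -1.14 without 4MU and 0.19 with 4MU, and the negative genes had 0.99 and -0.18. All of these values share mice with the interaction that selected the genes and are given as a description. For scale, 34.0% of all genes passed the threshold between CCl4 and control mice, and 23.7% between CCl4 + 4MU and 4MU mice.

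Before individual genes are considered, 2 properties of the libraries bear on every count. Totals for the 13 mice ran from 18249896 to 29425937 counts, so that 3 counts in a library correspond to 0.107 to 0.177 CPM. CCl4 mouse 2 stood apart from CCl4 mouse 1, with a trimmed-mean (TMM) scaling factor of 1.32 against 1.13 and higher levels of division genes. Without CCl4 mouse 2, which leaves the CCl4 group with 1 mouse that is assumed to vary like the other groups, 20 genes passed the threshold (13 positive, 7 negative). Without CCl4 mouse 1 the count was 1195. All 800 genes kept the sign of their interaction when either mouse was left out, and their median absolute size was 1.11 with mouse 2 of that group left out and 1.4 with mouse 1 left out. The other property is the untreated reference. With the 2 nanoparticle groups in place of the control and CCl4 mice, 7 genes passed the threshold, and the median size of the 800 differences, signed by their direction, was 0.59 in place of 1.24.

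**Figure D2:**
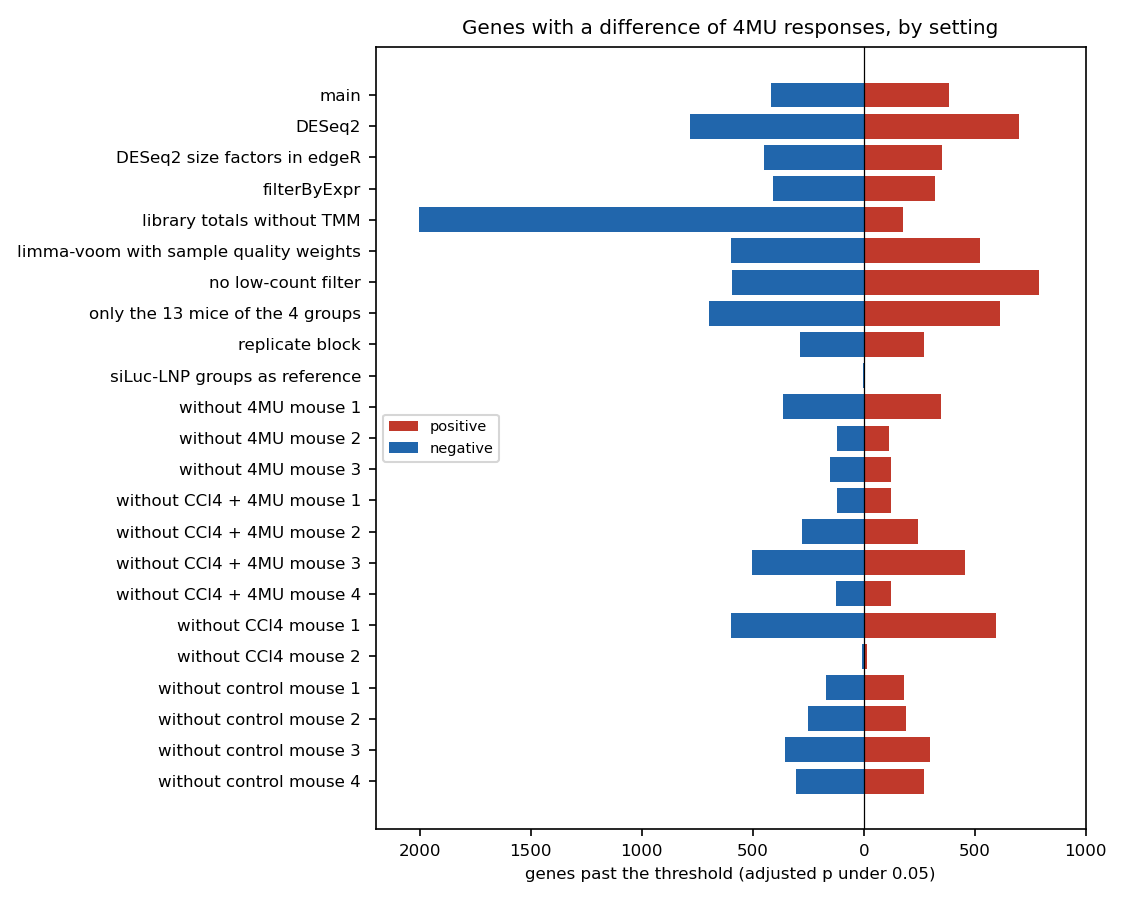
Bars give the number of genes past the threshold for the interaction, positive to the right in red and negative to the left in blue, under the reported fit ("main"), the alternative settings, and with each of the 13 mice left out. The bars are shortest with the siLuc-LNP groups as reference (7 genes) and without CCl4 mouse 2 (20 genes), and the bar for library totals without TMM is almost all negative (2003 of 2182 genes).

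6 genes passed the threshold in the reported fit and again with each of the 13 mice left out, 5 with a negative and 1 with a positive interaction. Rpa2 (ENSMUSG00000028884, chr4:132495643-132506063 on the plus strand, GRCm39) encodes a subunit of replication protein A, which coats single-stranded DNA during replication and repair. It stood at 8.24, 10.2, 9.31 and 8.59 CPM in control mice, 6.87, 9.69 and 7.55 in 4MU mice, 39.1 and 48.8 in CCl4 mice and 9.12, 8.98, 12.4 and 8.19 in CCl4 + 4MU mice. Both CCl4 mice were above every other mouse, and the CCl4 + 4MU mice overlapped the uninjured groups. The 4MU difference was -2.18 (adjusted p = 1.27e-05) in injured and -0.17 (adjusted p = 0.998) in uninjured livers, and the interaction was -2.01 ± 0.32 (SE), adjusted p = 0.00593. In the nanoparticle groups, Rpa2 stood at 10.9, 12.2 and 10.55 CPM in siLuc-LNP mice and 15.7, 9.76, 10.9 and 22.4 in CCl4 + siLuc-LNP mice. These 4 injured mice lay well below the CCl4 pair, and the interaction against them was -0.13.

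Hars1 (ENSMUSG00000001380, chr18:36899580-36916258 on the minus strand), the cytosolic histidyl-tRNA synthetase, had the smallest adjusted p of the 6. Its level was 39.5, 39.9, 37.8 and 36.8 CPM in control, 42.2, 41.5 and 43.3 in 4MU, 74.2 and 77.3 in CCl4 and 33.1, 39.3, 40.5 and 35.4 in CCl4 + 4MU mice, so that the CCl4 pair was again alone at the top. The interaction was -1.17 ± 0.17 (SE), adjusted p = 0.00317. Srsf3 (ENSMUSG00000071172, chr17:29251321-29262347 on the plus strand), a serine- and arginine-rich splicing factor, stood at 50.2, 72.8, 73.2 and 55.3 CPM in control, 81.5, 82.99 and 75.6 in 4MU, 159 and 145 in CCl4 and 58.2, 62.6, 82.5 and 47.5 in CCl4 + 4MU mice, with an interaction of -1.62 ± 0.30 (SE), adjusted p = 0.0115. Hnrnpm (ENSMUSG00000059208, chr17:33865207-33905834 on the minus strand), an hnRNP protein that binds pre-mRNA, stood at 86.9, 93.7, 88.7 and 71.2 CPM in control, 104.7, 96.97 and 101 in 4MU, 183 and 179.7 in CCl4 and 87.9, 104, 108 and 94.6 in CCl4 + 4MU mice, with an interaction of -1.12 ± 0.20 (SE), adjusted p = 0.0115. In all 3 genes the CCl4 mice did not overlap the other 3 groups, while the CCl4 + 4MU mice lay in or near the range of the uninjured mice.

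Rbbp4 (ENSMUSG00000057236, chr4:129184867-129229170 on the minus strand), a histone-binding subunit of several chromatin complexes, followed a different course. It stood at 83.5, 89.5, 84.99 and 86.2 CPM in control, 102, 103 and 98.4 in 4MU, 104 and 113 in CCl4 and 62.4, 59.6, 65.5 and 46.98 in CCl4 + 4MU mice. Here the CCl4 + 4MU mice were below all other mice of the 4 groups. The CCl4 difference was 0.33 (adjusted p = 0.0809) without 4MU and -0.79 (adjusted p = 9.35e-05) with 4MU, and the interaction was -1.12 ± 0.19 (SE), adjusted p = 0.0109. Dkc1, the pseudouridine synthase dyskerin, had the same order of groups, at 18.5, 24.5, 22.2 and 22.9 CPM in control, 23.3, 23.9 and 26.5 in 4MU, 25.7 and 32.5 in CCl4 and 11.01, 12.2, 13.9 and 9.502 in CCl4 + 4MU mice. Its interaction was -1.48 ± 0.28 (SE), adjusted p = 0.0115, and it passed the threshold with every mouse left out but CCl4 mouse 2.

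Fcgr3 (ENSMUSG00000059498, chr1:170878738-170893549 on the minus strand), a low-affinity receptor for immunoglobulin G carried by macrophages and natural killer cells, was the positive gene of the 6. It stood at 9.31, 5.19, 5.34 and 8.91 CPM in control, 3.84, 7.07 and 4.46 in 4MU, 3.65 and 9.49 in CCl4 and 21.1, 19.6, 20.6 and 19.6 in CCl4 + 4MU mice. The 4 CCl4 + 4MU mice were close together and above all 9 other mice. The interaction was 2.09 ± 0.42 (SE), adjusted p = 0.0115, with a CCl4 difference of -0.12 (adjusted p = 0.788) without 4MU and 1.97 (adjusted p = 1.57e-05) with 4MU.

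**Figure D3:**
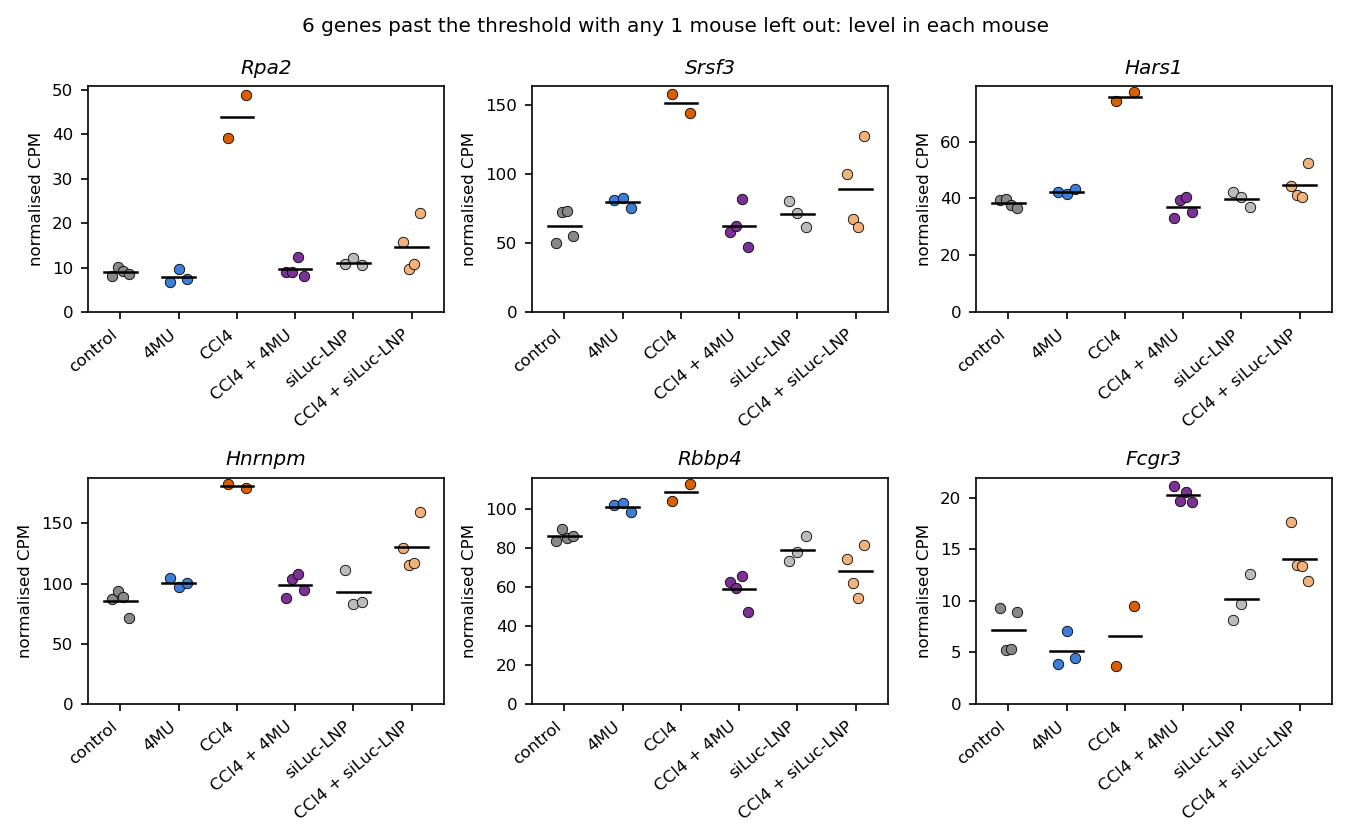
Normalised CPM of the 6 genes in each mouse (points) with the group mean (bar), for the 4 groups of the interaction and the 2 siLuc-LNP groups, on linear axes from 0. In the first 4 panels the 2 CCl4 mice stand above all other mice, in the Rbbp4 panel the CCl4 + 4MU mice are lowest among the 4 groups of the interaction, and in the Fcgr3 panel they are highest.

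Of the 800 genes, 144 more passed the threshold with 12 of the 13 mice left out in turn, and for 142 of these the exception was CCl4 mouse 2. On the negative side, Nasp, a histone chaperone, had an interaction of -1.73 (adjusted p = 0.0109). Tinf2, a protein of the telomere-binding shelterin complex, had -1.4 (adjusted p = 0.0115). Tmem109, a membrane protein, had -0.99 (adjusted p = 0.0115). Hsp90aa1, the inducible cytosolic HSP90 chaperone, stood at 252 and 512 CPM in the CCl4 pair and 95.1, 104.5, 169.8 and 101 in CCl4 + 4MU mice, with an interaction of -2.05 (adjusted p = 0.0115). The 2 CCl4 mice thus differed widely from each other, though both were above all 4 treated mice.

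On the positive side, Arrdc2, an arrestin-domain protein, stood at 14.6, 12.5, 19.4 and 15.7 CPM in control, 11.02, 9.96 and 8.05 in 4MU, 4.72 and 3.73 in CCl4 and 11.4, 14.4, 10.1 and 17.4 in CCl4 + 4MU mice. The CCl4 pair was below all other mice. The interaction was 2.35 ± 0.37 (SE), adjusted p = 0.00593, and Arrdc2 was also among the 7 genes that passed with the siLuc-LNP reference, where its value was 1.7. The aryl hydrocarbon receptor Ahr, which induces enzymes of xenobiotic metabolism, had an interaction of 1.3 (adjusted p = 0.0115). Il18bp, a secreted inhibitor of interleukin 18, had 1.87 (adjusted p = 0.0115). The calpain protease Capn10 had 1.58 (adjusted p = 0.0115), the glucosidase Ganc 1.15 (adjusted p = 0.0115), and Tmem278, Atosa and AI480526 had 3.0 (adjusted p = 0.0115), 1.72 (adjusted p = 0.0109) and 2.18 (adjusted p = 0.0109). These genes passed without each mouse other than CCl4 mouse 2.

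Endoplasmic reticulum chaperones and folding enzymes, which assist secreted proteins and rise when unfolded protein accumulates, had the highest share of members past the threshold among the 36 gene lists examined. The interaction was negative and past the threshold for 10 of 24 members tested (41.7%) and positive for none, and the median of the list was -1.04. Pdia6, a protein disulfide isomerase, stood at 438, 518, 414 and 394 CPM in control, 542, 522 and 389.8 in 4MU, 1127 and 988 in CCl4 and 449, 555, 606 and 438 in CCl4 + 4MU mice. The CCl4 pair was above all other mice. Its interaction was -1.18 ± 0.25 (SE), adjusted p = 0.0139. The reductase Dnajc10 had -1.59 (adjusted p = 0.0127), the co-chaperone Dnajc3 -1.07 (adjusted p = 0.0239) and the lectin chaperone calnexin (Canx) -1.09 (adjusted p = 0.0241). Calnexin and Dnajc3 ended below the uninjured level, with CCl4 differences of 0.56 and 0.45 without 4MU and -0.53 and -0.62 with 4MU. The central chaperones Hspa5 (BiP) and Hsp90b1 (GRP94), shown after their values were seen, had -1.24 (adjusted p = 0.0392) and -1.51 (adjusted p = 0.0282). In injured livers, 17 of the 24 members fell with 4MU, and in uninjured livers none passed the threshold, with a median of 0.04. No member passed without CCl4 mouse 2 or with the siLuc-LNP reference, where the list's median was -0.93 and -0.60.

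Promoters of some members of this family carry the endoplasmic reticulum stress element, a composite of a CCAAT box and a CCACG half-site that is bound by NF-Y and ATF6. The sequence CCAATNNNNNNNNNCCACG was searched on both strands of RefSeq promoters of the GRCm38.p6 assembly, each 300 bases long from 250 bases before to 50 after the start site. It was present in 39 of all 32851 promoters (0.119%) and in 20 of the 10424 tested genes that had a promoter in the table (0.192%). Among the chaperones it was present in 8 of the 21 with a promoter (38.1%). These were 6 of the 10 past the threshold (60%) and 2 of the 11 others with a promoter (18.2%). Among all genes with a negative interaction it was present in 7 of 324 (2.16%), and among those with a positive interaction in none of 269. The 7 include the 6 chaperones already counted, so this share is no separate result. The stretches that hold the match are shown 5′ to 3′ along the gene for 5 of the chaperones named, with the letters of both half-sites in capitals. In Hsp90b1 there were 2 matches, the second on the opposite strand, which reads as CGTGG before ATTGG.
Hspa5 (chr2:34771984-34772083, plus strand): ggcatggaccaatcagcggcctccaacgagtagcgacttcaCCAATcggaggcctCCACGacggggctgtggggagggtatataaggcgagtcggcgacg
Hsp90b1 (chr10:86705523-86705666, minus strand): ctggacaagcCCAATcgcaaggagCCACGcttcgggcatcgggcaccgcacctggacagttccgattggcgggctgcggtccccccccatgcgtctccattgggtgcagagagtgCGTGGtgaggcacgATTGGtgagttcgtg
Pdia6 (chr12:17266450-17266549, plus strand): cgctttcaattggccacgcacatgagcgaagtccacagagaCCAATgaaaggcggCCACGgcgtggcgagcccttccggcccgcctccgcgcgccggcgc
Dnajc3 (chr14:118937786-118937885, plus strand): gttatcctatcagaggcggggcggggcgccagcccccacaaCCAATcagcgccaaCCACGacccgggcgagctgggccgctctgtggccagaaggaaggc
Canx (chr11:50325760-50325859, minus strand): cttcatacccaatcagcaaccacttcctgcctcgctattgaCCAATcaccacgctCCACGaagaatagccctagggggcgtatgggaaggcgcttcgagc
Dnajc10, which had the most negative interaction of the family, held no match to these letters in its window.

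Splicing factors of the SR and hnRNP families, to which Srsf3 and Hnrnpm belong, came next. The interaction was negative and past the threshold for 11 of 29 (37.9%) and positive for none, with a list median of -0.83. Hnrnpa3 stood at 174, 222, 220.4 and 181 CPM in control, 281, 239.99 and 189.6 in 4MU, 395 and 464 in CCl4 and 182, 212, 223 and 139.5 in CCl4 + 4MU mice, and its interaction was -1.43 ± 0.32 (SE), adjusted p = 0.0181. Hnrnpab had -1.13 (adjusted p = 0.0139). Members with processed pseudogene copies, Hnrnpa3 among them, are uncertain, since reads that mapped to several places were not counted. In injured livers 19 of the 29 fell with 4MU. 2 members, Srsf3 and Hnrnpm, passed without CCl4 mouse 2 and none with the siLuc-LNP reference, and the list's median was -0.61 and -0.38 in these fits. The 74 cytosolic ribosomal protein genes tested had no member past the threshold and a median of 0.05. The most abundant of them, Rpsa, had -0.20 (adjusted p = 0.74). DESeq2 placed 2 ribosomal genes past the threshold, both negative, and the fit of the 13 mice alone placed 1 positive and 2 negative. Ribosomal genes with processed pseudogene copies carry the same uncertainty as Hnrnpa3.

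DNA replication and mitosis, both parts of the regenerative division that follows CCl4, differed in how many members passed. Among replication genes, 7 of 29 (24.1%) had a negative interaction past the threshold and the list median was -1.59. Mcm7, part of the replicative helicase, stood at 16.4, 10.7, 13.1 and 11.6 CPM in control, 12.4, 13.9 and 17.1 in 4MU, 62.3 and 111 in CCl4 and 20.6, 20.8, 30.5 and 17.1 in CCl4 + 4MU mice. Both CCl4 mice exceeded all others, with mouse 2 the higher. Its interaction was -2.13 ± 0.41 (SE), adjusted p = 0.0115. Pcna, the sliding clamp, had -1.89 (adjusted p = 0.0127), Rrm1, a subunit of ribonucleotide reductase, -1.95 (adjusted p = 0.0284), and Gins1, a helicase cofactor, -1.7 (adjusted p = 0.0325).

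Among mitosis genes, 2 of 30 (6.67%) passed, a share near that of all genes. Aurka, a mitotic kinase, stood at 4.28, 3.66, 4.01 and 2.98 CPM in control, 4.099, 4.53 and 3.55 in 4MU, 26.7 and 53.9 in CCl4 and 8.09, 8.98, 16.5 and 4.63 in CCl4 + 4MU mice, with an interaction of -2.2 ± 0.48 (SE), adjusted p = 0.0167. The spindle protein Nusap1 had -2.26 (adjusted p = 0.0381). In injured livers, 27 of 29 replication and 28 of 30 mitosis genes fell with 4MU, by a median of -2.14 and -1.98 (log2). In uninjured livers the medians were -0.44 and -1.27 with no member past the threshold. The median of the per-gene interactions of the mitosis list was -0.59. Nusap1, at 0.763, 0.885, 1.196 and 1.47 CPM in control and 1.28, 1.21 and 0.557 in 4MU mice, shows the low levels from which the uninjured side of the mitosis comparison was made. No member of either list passed without CCl4 mouse 2 or with the siLuc-LNP reference. With that reference the median was -0.19 for replication, and that for mitosis changed sign to 0.65.

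**Figure D4:**
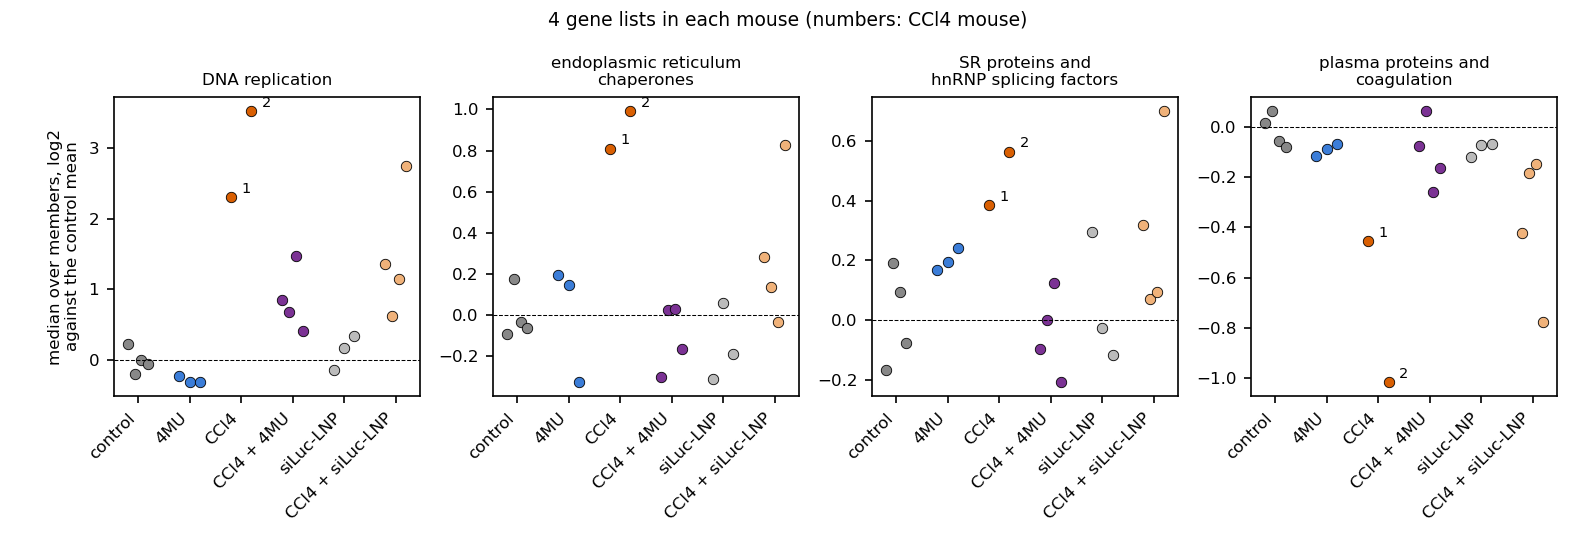
For each mouse, the median over the tested members of a list of log2(CPM + 0.5) minus the mean of the control mice, for 4 lists in 6 groups, with the CCl4 mice numbered. CCl4 mouse 2 is farther from the control mice than CCl4 mouse 1 in all 4 panels. Of the CCl4 + siLuc-LNP mice, mouse 4, the last point of each panel, is the farthest from the control mice in all 4.

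For replication genes, these medians were 2.3 and 3.52 in CCl4 mice 1 and 2, 0.85, 0.68, 1.48 and 0.41 in the 4 CCl4 + 4MU mice and 1.36, 0.62, 1.15 and 2.74 in the 4 CCl4 + siLuc-LNP mice. Of the nanoparticle mice, 3 were thus within the range of the CCl4 + 4MU mice and 1 was between the CCl4 mice. For the endoplasmic reticulum chaperones the medians were 0.81 and 0.99 in the CCl4 pair, -0.30, 0.02, 0.03 and -0.17 in CCl4 + 4MU mice and 0.28, 0.14, -0.03 and 0.83 in CCl4 + siLuc-LNP mice.

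Nearly all calls among the hepatocyte secretory and metabolic lists were positive. Of 31 genes of plasma proteins and coagulation, 10 had a positive interaction past the threshold (32.3%) and none a negative one, with a median of 0.66. Serping1, the C1 inhibitor, stood at 1182, 1313, 868 and 1012 CPM in control, 1085, 980 and 864 in 4MU, 416 and 346 in CCl4 and 959, 1032, 778 and 907 in CCl4 + 4MU mice. The CCl4 pair was below all other mice. Its interaction was 1.43 ± 0.29 (SE), adjusted p = 0.0116. The complement proteases C1ra and Masp2 had 1.19 (adjusted p = 0.0115) and 1.35 (adjusted p = 0.0115), and kininogen (Kng1) had 1.47 (adjusted p = 0.0127). Hrg, a histidine-rich plasma glycoprotein, had 1.7 (adjusted p = 0.0254).

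Among acute-phase proteins, 4 of 20 (20%) passed, all positive. Saa4, a constitutive serum amyloid A, had 1.61 (adjusted p = 0.0287), and Itih3, an inter-alpha-trypsin inhibitor chain that binds hyaluronan, had 1.11 (adjusted p = 0.0491). The orosomucoids Orm1 and Orm2 had 1.78 (adjusted p = 0.0331) and 3.02 (adjusted p = 0.0491), values that are uncertain because their sequences are close to each other. Orm2 ranged from 51.2 to 187 CPM among the control mice.

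Periportal and amino acid genes had 5 of 21 members (23.8%) past the threshold, all positive. These included Hpd and Fah of tyrosine breakdown, at 1.6 (adjusted p = 0.036) and 1.24 (adjusted p = 0.043), the tyrosine aminotransferase Tat at 2.1 (adjusted p = 0.043) and the urea cycle enzyme Otc at 1.05 (adjusted p = 0.043). Genes of the opposite, pericentral zone, where CCl4 is activated, had 4 of 20 (20%), also all positive. Among them were Ahr, given above, the R-spondin receptor Lgr5 at 1.59 (adjusted p = 0.0127) and the gulonolactone oxidase Gulo at 1.34 (adjusted p = 0.0319). Both zones were therefore represented on the same side.

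Cyp2e1, the P450 enzyme that activates CCl4, stood at 7600.2, 7149, 4331 and 6023 CPM in control, 7934, 6317 and 5809 in 4MU, 482 and 214 in CCl4 and 2177, 2064, 1166 and 1582 in CCl4 + 4MU mice. The CCl4 + 4MU mice lay between the CCl4 pair and the uninjured mice, without overlap on either side. The interaction was 2.24 ± 0.56 (SE), adjusted p = 0.0287. In the 39 P450 genes of families 1 to 3, 4 interactions were positive and 1 negative (12.8%). Cyp2d22 had 1.58 (adjusted p = 0.0284), Cyp2a22 1.78 (adjusted p = 0.0321) and Cyp2c50 1.33 (adjusted p = 0.041), and as members of clustered families with close copies they carry the uncertainty noted for reads of several places.

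In bile acid synthesis and transport, 3 of 24 genes (12.5%) passed, all positive. Cyp7a1, the rate-limiting enzyme of bile acid synthesis, had the largest interaction of all genes named here. It stood at 387, 106, 86.6 and 267 CPM in control, 58.9, 48.2 and 45.1 in 4MU, 35.6 and 11.3 in CCl4 and 140.3, 159, 130.4 and 218 in CCl4 + 4MU mice. The 4MU mice were below all 4 control mice, whereas the CCl4 + 4MU mice were above both CCl4 mice. Its interaction was 4.86 ± 0.82 (SE), adjusted p = 0.0109, made up of a 4MU difference of 2.79 (adjusted p = 0.00469) in injured and -2.06 (adjusted p = 0.23) in uninjured livers. The control mice differed among themselves by more than 4-fold.

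The bile acid importer Slc10a1 had a much tighter pattern, at 746, 523, 736 and 791 CPM in control, 689, 574 and 571 in 4MU, 184 and 225 in CCl4 and 732, 644, 520.4 and 731 in CCl4 + 4MU mice, with an interaction of 1.88 ± 0.36 (SE), adjusted p = 0.0115. The bile acid receptor Nr1h4 (FXR) had 0.90 (adjusted p = 0.0423). Across plasma protein, acute-phase, periportal, pericentral, P450 and bile acid genes, no member passed without CCl4 mouse 2 or with the siLuc-LNP reference. The list medians ran from 0.35 to 0.90 without CCl4 mouse 2 and from 0.03 to 0.33 with the siLuc-LNP reference, where the median of all genes was also 0.03. The lowest of these, that of the periportal genes, thus did not stand above all genes with that reference.

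**Figure D5:**
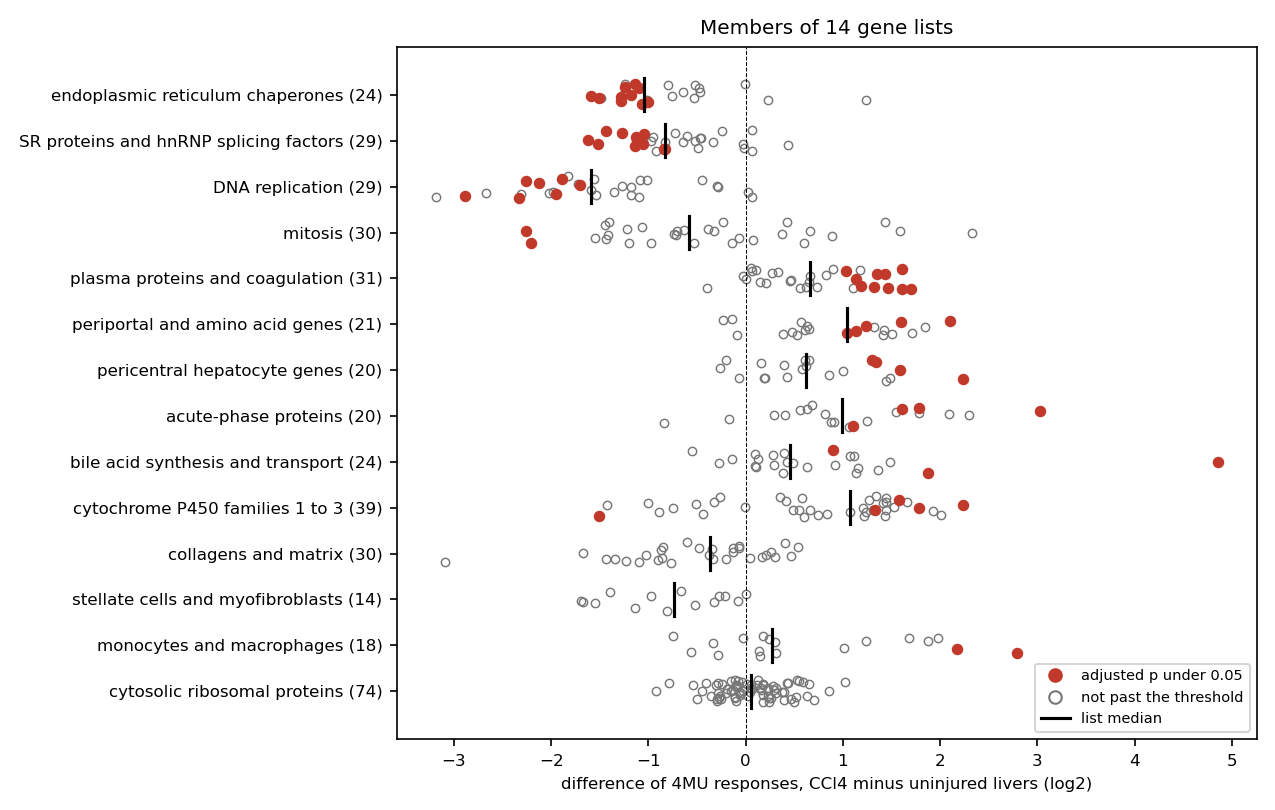
Each point is a tested member of 1 of 14 gene lists (number of members in brackets), placed by its interaction in log2 units, filled in red where the adjusted p was under 0.05, with the list median as a black bar. Filled points lie to the left in the chaperone, splicing, replication and mitosis lists and, apart from 1 P450 gene, to the right in the hepatocyte lists, while the collagen, stellate and ribosomal lists have none.

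Genes nearest to the chemistry of 4MU were mixed. Of 19 genes tested for UDP-glucuronate supply and glucuronidation, 1 interaction was positive and 2 were negative (15.8%). Ugp2, which makes UDP-glucose, the precursor of UDP-glucuronate, stood at 388, 325, 437 and 555 CPM in control, 524, 409 and 771 in 4MU, 416 and 505 in CCl4 and 356, 267, 294 and 208 in CCl4 + 4MU mice, with an interaction of -1.12 ± 0.32 (SE), adjusted p = 0.041. The glucuronosyltransferase Ugt2b5 had -1.14 (adjusted p = 0.038), with 1 of the 3 4MU mice at 1089 CPM against 523 and 522 in the others. Ugt1a6a, which shares exons with its neighbours in the Ugt1a locus, had 2.03 (adjusted p = 0.0319). Sult1a1, a phenol sulfotransferase, was the 1 of 13 sulfotransferases past the threshold, at 1.58 (adjusted p = 0.0115).

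Of 12 genes of hyaluronan synthesis, breakdown and reception, 8 were tested and none passed. Has1, Has2 and Has3 were below the count minimum. Has2 was at 0 counts in all 13 libraries but CCl4 mouse 2, which had 2 counts, and no library of the 13 exceeded 0.861 CPM for Has1 or 0.512 CPM for Has3. The most abundant member, the hyaluronidase Hyal2, stood at 36.01 and 30.03 CPM in CCl4 and 49.5, 47.4, 47.5 and 61.3 in CCl4 + 4MU mice, with an interaction of 0.60 (adjusted p = 0.146). The summed level of the 12 genes was 106 to 141 CPM in control, 122 to 132 in 4MU, 136 to 173 in CCl4 and 134 to 145 in CCl4 + 4MU mice.

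No interaction of a fibrosis gene passed the threshold, at 0 of 30 for collagens and matrix and 0 of 14 for stellate cells and myofibroblasts, against 5.67% of all genes. The values leaned to the negative side. All 14 stellate values were below 0, with a median of -0.74, and 22 of the 30 matrix values were, with a median of -0.36. DESeq2 placed 2 stellate genes past the threshold, as did the fit without CCl4 mouse 1. With the siLuc-LNP reference the medians were -0.23 and 0.02. Col1a1 stood at 3.66, 2.597, 6.32 and 6.21 CPM in control, 2.25, 10.7 and 3.85 in 4MU, 154 and 273 in CCl4 and 91.04, 56.3, 143 and 30.4 in CCl4 + 4MU mice. The CCl4 + 4MU mice were below both CCl4 mice and far above the uninjured mice, and the spread among them was larger as a fold than that of the CCl4 pair. Its interaction was -1.67 ± 0.74 (SE), adjusted p = 0.159. Col3a1 had -0.60 (adjusted p = 0.57), Acta2, the smooth muscle actin of activated stellate cells, -1.69 (adjusted p = 0.396), the stellate glycoprotein Reln -0.81 (adjusted p = 0.185), fibronectin (Fn1) 0.26 (adjusted p = 0.684) and Fstl1, a secreted glycoprotein, -1.39 (adjusted p = 0.0963). With an SE of 1.23 on the log2 scale for Acta2, a difference of responses as large as those of the chaperones was not detectable for it in these mice. The summed stellate list, at 568 to 743 CPM in CCl4 and 315 to 494 in CCl4 + 4MU mice, did not overlap between the 2 injured groups. The summed collagen and matrix list did, at 3144 to 4662 CPM in CCl4 and 2930 to 4151 in CCl4 + 4MU mice.

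Leukocyte genes gave few calls. Among 18 genes of monocytes and macrophages, 2 (11.1%) passed, both positive and both of antigen presentation. H2-Ab1, a class II histocompatibility chain, stood at 45.04, 42.03, 23.9 and 22.2 CPM in control, 8.61, 33.4 and 13.9 in 4MU, 13.8 and 9.08 in CCl4 and 40.6, 19.5, 37.7 and 80.3 in CCl4 + 4MU mice. The CCl4 + 4MU mice were above the CCl4 pair and overlapped the control mice. Its interaction was 2.79 ± 0.61 (SE), adjusted p = 0.0167. Cd74, the invariant chain of the same complex, had 2.18 (adjusted p = 0.0355). The summed macrophage list was 382 to 518 CPM in control, 166 to 447 in 4MU, 872 to 893 in CCl4 and 936 to 1434 in CCl4 + 4MU mice. The members did not move together between the injured groups. Lyz2, a lysozyme of myeloid cells, ranged from 143 to 156 CPM in CCl4 and 221 to 438 in CCl4 + 4MU mice, and Gpnmb, a glycoprotein of lipid-laden macrophages, from 50.1 to 57.8 and 91.8 to 176. The monocyte chemokine receptor Ccr2 lay the other way, at 11.8 to 19.1 CPM in CCl4 and 4.06 to 9.35 in CCl4 + 4MU mice, while Ly6c2 and Itgam overlapped between these groups. The part of these cells in the Fcgr3, H2-Ab1 and Cd74 values was not tested. With the siLuc-LNP reference, 1 macrophage gene passed, Trem2, which marks lipid-handling macrophages and was named after its values were seen. Trem2 stood at 0.509, 0.236, 0.171 and 0.532 CPM in control, 0.304 to 0.564 in 4MU, 3.72, 1.48 and 3.25 in siLuc-LNP, 16.4 and 13.3 in CCl4 and 17.5, 19, 24.6 and 18.8 in CCl4 + 4MU mice. The control and CCl4 mice do not enter the siLuc-LNP contrast, which compares the 4MU and CCl4 + 4MU mice with the 2 nanoparticle groups. Against the untreated groups, the interaction of Trem2 was 0.14 (adjusted p = 0.907).

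Of 22 chemokine and receptor genes, 2 (9.09%) passed, 1 on each side. Ccl2, which draws monocytes, had an interaction of -2.75 (adjusted p = 0.0464) from levels of 2.38 and 6.89 CPM in CCl4 and 0.602, 0.349, 0.739 and 1.25 in CCl4 + 4MU mice. Cxcl9, which draws T cells, had 2.19 (adjusted p = 0.0331). Of Kupffer cell genes, 1 of 12 passed, the complement component C6 at 1.43 (adjusted p = 0.0421), and of sinusoidal endothelial genes 1 of 12, the receptor Flt1 at -1.5 (adjusted p = 0.0319). No member passed among 13 lymphocyte, 8 neutrophil, 3 plasmacytoid dendritic, 6 erythroid, 10 ductal or 25 interferon-stimulated genes tested. Outside these lists, 4 immunoglobulin constant-region genes and 1 variable-region gene were past the threshold. The most abundant of these lists were Jchain at 0.52 (adjusted p = 0.436), S100a9 at 1.37 (adjusted p = 0.281), Bst2 at 0.60 (adjusted p = 0.211), Hbb-bs at 0.58 (adjusted p = 0.701) and Spp1 at -0.28 (adjusted p = 0.749). The ductal keratin Krt19 reached 92.6 CPM in 1 CCl4 + 4MU mouse, against at most 6.14 CPM in the CCl4 pair. Defining transcripts of acinar pancreas, adipocyte and skeletal muscle (Cpa1, Pnlip, Lep, Plin1, Acta1) were at or near 0 in all 13 libraries. The elastase Cela1, also counted among acinar markers, had -0.06 (adjusted p = 0.945) at similar levels in all 4 groups. Albumin, the main hepatocyte product, stood between 58085 and 172725 CPM.

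For the remaining lists, the share of all genes past the threshold, 5.67%, serves for scale. Of 20 ATF4 stress response genes, 2 interactions were positive and 1 negative (15%). Chac1 and Ddit4 were positive, at 3.11 (adjusted p = 0.0471) and 2.69 (adjusted p = 0.0321), whereas Mthfd2 was negative at -2.17 (adjusted p = 0.0325). Of 20 p53 targets, 2 passed (10%). These were Zmat3 and Ccng1, both negative, at -0.97 (adjusted p = 0.0293) and -1.06 (adjusted p = 0.0319). Of 24 PPAR-alpha targets, 1 was positive and 1 negative (8.33%). The thioesterase Acot3 was positive at 2.42 (adjusted p = 0.039) and the pantetheinase Vnn1 negative at -2.05 (adjusted p = 0.0319). Of 27 glutathione and Nrf2 genes, 1 was positive and 1 negative (7.41%). The glutathione transferases Gstp1 and Gstt1 went opposite ways, at -1.73 (adjusted p = 0.0461) and 1.06 (adjusted p = 0.0497). The sterol reductase Tm7sf2 was the 1 of 24 cholesterol genes past the threshold, at 2.06 (adjusted p = 0.0362), although 22 of the 24 values were above 0. Of 23 fatty acid and triglyceride genes, 22 values were above 0 and none passed, and the most abundant, the desaturase Scd1, ranged from 1263 to 12578 CPM among control mice alone. Of 18 immediate early genes, 1 passed (5.56%), the AP-1 factor Fosl2 at -1.29 (adjusted p = 0.045). The zinc finger factor Egr2, at or under 3 counts in every control library, had -1.09 (adjusted p = 0.5). Of 9 major urinary protein genes, a family of near-identical copies, 1 passed (11.1%), Mup20 at -1.92 (adjusted p = 0.0319).

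The scaling of the libraries sets where 0 lies. Without TMM factors, with library totals alone, 2182 genes passed, 179 positive and 2003 negative, against 384 and 416 with TMM, and the median of all genes moved from 0.05 to -0.38. Relative to that median, the list medians were -1.1 for chaperones, -0.86 for splicing factors, -1.66 for replication, 0.64 for plasma proteins and 1.04 for periportal genes. The shift was nearly the same for every gene, so that these values had to lie close to those with TMM.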

How the data were processed

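Read counts per gene, deposited by the authors as raw counts, were used as they stand. Per the study's methods, the authors trimmed the reads with Trimmomatic 0.39, aligned them to GRCm39 with HISAT2 and counted read pairs with featureCounts in R 3.4.2, without reads that mapped to several places. The library kit was directional, and the strand setting of the counting is not given in the sources used here, so a gene cannot be told apart from an overlapping or antisense neighbour. Counts were fitted for all 27 mice in 8 groups with no covariate by edgeR 4.0.16 (TMM factors, quasi-likelihood test, Benjamini-Hochberg adjustment over the 14114 genes averaging 10 or more counts). The interaction was (CCl4 + 4MU minus CCl4) minus (4MU minus control), the SE is the absolute log2 value divided by the square root of F, and the threshold was an adjusted p of 0.05. The code was tested on simulated data. There, the edgeR test recovered 8 of 70 genes with a true absolute interaction of 1 log2 unit. It recovered 48 of 59 at 2 units and 59 of 71 at 3. Interactions near 1 log2 unit were thus mostly missed. The same data gave 11 false calls with edgeR, 24 with DESeq2 and 6 with voom. CPM are on TMM-scaled totals.

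Alternatives were DESeq2 1.42.0, limma 3.58.1 (voom with quality weights), other scaling and filters, the 13 mice alone, a replicate block, the siLuc-LNP reference and each mouse left out. Totals of the 13 libraries were 18249896 to 29425937 counts. The labels give replicate numbers but no source of them, so p-values measure the spread between these mice. No pair of replicates was a duplicate (chi-square per degree of freedom at least 24.3 in 16 pairs). Symbols came from GENCODE (GRCm39), with 54749 of 55414 identifiers matched.

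The comparison, the 36 gene lists and the promoter motif were chosen with earlier results of these data known. Genes were named by a rule: the 10 largest values in each direction that stayed past the threshold without each mouse, filled by adjusted p where there were fewer, then up to 4 members past the threshold or else the most abundant member of each list, then Has1, Has2, Has3, Acta2, Col1a1, Col3a1, Ccl2, Hrg, Cyp7a1, Fstl1 and Egr2, leaving out predicted genes and pseudogenes. Of the genes the rule named, 1 is counted among them but not reported here. Genes past the threshold in all 3 tests with opposite 4MU responses would have been named and there were none. Sequences are from RefSeq (GRCm38.p6).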

Additional observations from a re-analysis of the deposited data

Results flagged for a closer look

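The 4MU response differed between injured and uninjured livers, by the test of the difference itself, for 800 genes, 384 positive and 416 negative. The genes named from these are given with their values in the report.

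In groups of 4 mice, 1 mouse stood far from the other 3 (Dixon's test at its 95% critical value) for 13 of 198 groups of values checked, where chance flags about 1 in 20 groups, so that the number is near that from chance. In control mice these were Il18bp at 35.7 CPM in mouse 2, Vnn1 at 12.3 and Cd74 at 159 CPM in mouse 1, Hspa5 at 650.1 CPM in mouse 1, and Gstp1 at 168 and Canx at 404 CPM in mouse 4. In CCl4 + 4MU mouse 3, Hsp90aa1 stood at 169.8 CPM and Pcna at 51.3 CPM, both above the other 3 mice. In CCl4 + 4MU mouse 4, Hyal2 stood at 61.3, Gstt1 at 329, Fosl2 at 11.7, Hbb-bs at 191 and Acta2 at 23.2 CPM, each above the other 3 mice. The part of these mice in the interactions of the genes was not tested beyond leaving each mouse out.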

How the results depend on the processing

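With 2 CCl4 mice, 1 library decides most of the calls. Leaving out each of the 13 mice in turn gave 20 to 1195 genes for the interaction (13 to 598 positive, 7 to 597 negative), 177 to 2600 genes for 4MU in injured livers and 0 to 1 in uninjured livers, and the lowest interaction and injured-liver counts were those without CCl4 mouse 2. Other mice that moved the interaction count of 800 by over 1.5 times were 4MU mouse 2 (237 genes without it), 4MU mouse 3 (271), CCl4 + 4MU mouse 1 (244), CCl4 + 4MU mouse 2 (520), CCl4 + 4MU mouse 4 (246), control mouse 1 (351) and control mouse 2 (441). The siLuc-LNP reference gave 7 genes (6 positive, 1 negative). DESeq2 gave 1481 (698 and 783), library totals without TMM 2182 (179 and 2003), no filter on low counts 1386 of 31177 (792 positive), the 13 mice alone 1308 (613 and 695) and an unadjusted p 3603 (1856 and 1747).

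For 4MU in injured livers, an absolute log2 of at least 1 left 1139 genes and an unadjusted p gave 4777. For uninjured livers, DESeq2 gave 51, library totals 0, voom 2, no filter 136, the 13 mice alone 0 and an unadjusted p 966. The causes were not tested. With the replicate number as a block, 561 genes passed the interaction. Same-numbered mice did not deviate together (r from -0.11 to 0.22 over 16 pairs, 4 above 0.1), so the numbers were not taken as pairs.

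Of the 79 named genes past the threshold, all kept their direction in every fit, 79 stayed past it in DESeq2, 63 with the block, 6 without CCl4 mouse 2 and 1 with the siLuc-LNP reference. Reversals were found among named genes that did not pass: Fn1 (-0.19 without TMM, -0.0452 with siLuc-LNP), Hbb-bs (-0.15 in voom, -0.0647 with the block), Cela1 (0.18 with the block, 0.34 with siLuc-LNP), Acta2 and Col3a1 (0.24 and 0.31 with siLuc-LNP) and Trem2 (-0.27 without TMM, -0.0826 in voom). With 1 mouse left out, Spp1 from -0.52 to 0.0296, Hbb-bs from -0.40 to 0.91, Cela1 from -0.52 to 0.54 and Trem2 from -0.16 to 0.36 crossed 0. Depth limits genes near 0.107 to 0.177 CPM, such as Has2.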
